A study of Mus musculus with 80 samples.

Results

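Fibroblast and collagen matrix genes encode the scaffold of the tumour stroma: the collagens, the glycoproteins and proteoglycans that bind them, the enzymes that process, crosslink and cut them, and surface markers of fibroblasts. The set was given as a list of 42 genes. Of these, 41 had a named probe set on the array and all 41 were bright enough to be tested, among 8769 tested genes of 12393 in all; Fbn1 was not analysed here. The rule names the genes and takes the brightest probe set of each. The list was chosen with earlier results of these data known.

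The tissue was mammary tumour of FVB mice. Every mouse, controls included, carried an MMTV-Myc transgene, whose promoter comes from mouse mammary tumour virus and drives the oncogene in mammary epithelium. Mice were E2F wild type, E2F1 null, E2F2 null or E2F3 heterozygous, E2F proteins being transcription factors of cell cycle entry, and 20 tumours of each genotype were taken at their endpoint and frozen, with 1 array per tumour and no further treatment named. No age of the mice and no structure of the E2F alleles is stated in the sources. Each label holds a number before a hyphen, and 46 of the 80 tumours shared it with another tumour of their genotype. What it stands for is not given; tumours that share it may share an animal, and p-values measure the spread between these samples. Of the 53 label numbers, 10 belonged to E2F3 heterozygous and 11 to E2F2 null tumours, with 16 in each other genotype.

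Fibrillar collagens I, III and V form the cables that bear tension in connective tissue, and collagen VI, decorin, lumican, periostin and fibronectin link these cables to each other and to cells. In the mammary gland this matrix is made mainly by fibroblasts, while collagen IV lies in the basement membranes beneath epithelium and around vessels. In carcinomas, transforming growth factor beta and platelet-derived growth factors are known to drive fibroblasts to deposit and stiffen it. The arrays measured whole tumours, so fewer cells of a type and less RNA per cell cannot be told apart.

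Markers of the labelled tissue were present. Of 10 luminal epithelial markers, all 10 were tested, and 9 of them, Krt8, Krt18 and Epcam included, exceeded the filter value on all 80 arrays. Of the 14 fibroblast markers outside the set, 12 were tested. Of 10 smooth muscle and pericyte markers, 8 were tested, and Acta2 and Rgs5 exceeded the filter value on all 80 arrays. Myh11 and Cnn1, which define mature smooth muscle, were below the filter. Of 10 adipocyte markers, 5 were tested, and Fabp4 and Lpl exceeded the filter value on all 80 arrays. The adipocyte genes Cidec, Lep and Pck1 were below the filter. The array of E2F1 null replicate 6 was the least like the rest, with a mean correlation to the others of 0.911 over all probe sets, against 0.927 for the next lowest and a median of 0.948.

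The promoters of 25 measured matrix genes were in the RefSeq table (GRCm38.p6), with 30 windows in all. The 250 bases upstream of the annotated start are shown for Col1a2 and Col3a1, which encode chains of the main fibrillar collagens and moved closely with Col1a1, and for Fbln2 and Timp3, which followed Col1a1 least. They lie at chr6:4505368-4505617, chr1:45311288-45311537, chr6:91212514-91212763 and chr10:86300162-86300411, all on the plus strand, and run from 5′ to 3′. Capitals mark, on either strand, the letters CCAAT of the CCAAT box, the letters TATAAA of the TATA box and the letters GGGCGG of the GC box.
Col1a2: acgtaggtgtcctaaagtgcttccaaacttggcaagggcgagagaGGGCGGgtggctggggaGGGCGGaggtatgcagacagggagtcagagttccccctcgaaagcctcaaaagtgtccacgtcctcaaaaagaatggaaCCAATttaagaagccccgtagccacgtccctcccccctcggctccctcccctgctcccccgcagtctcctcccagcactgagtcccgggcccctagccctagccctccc
Col3a1: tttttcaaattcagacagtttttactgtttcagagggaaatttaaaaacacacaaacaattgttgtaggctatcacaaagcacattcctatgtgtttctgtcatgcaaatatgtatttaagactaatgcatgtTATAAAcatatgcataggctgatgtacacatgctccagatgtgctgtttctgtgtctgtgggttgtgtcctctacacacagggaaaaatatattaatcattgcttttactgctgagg
Fbln2: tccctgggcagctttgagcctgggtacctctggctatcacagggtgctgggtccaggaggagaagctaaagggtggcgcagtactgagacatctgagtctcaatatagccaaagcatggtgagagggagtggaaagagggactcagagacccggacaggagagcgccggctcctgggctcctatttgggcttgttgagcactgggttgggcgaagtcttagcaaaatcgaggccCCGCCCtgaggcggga
Timp3: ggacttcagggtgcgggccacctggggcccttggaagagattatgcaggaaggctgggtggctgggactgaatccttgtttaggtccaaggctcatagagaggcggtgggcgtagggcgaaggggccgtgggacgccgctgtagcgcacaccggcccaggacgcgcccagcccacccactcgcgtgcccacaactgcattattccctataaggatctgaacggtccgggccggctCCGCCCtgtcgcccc
The Col1a2 window held GGGCGG 2 times and CCAAT 1 time, that of Col3a1 held TATAAA 1 time, and those of Fbln2 and Timp3 each held 1 GGGCGG on the opposite strand.

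Searched on both strands, TATAAA was in the windows of 4 of the 25 genes (Col3a1, Postn, Thbs2 and Tnc), against 12.4% of all 32851 promoter windows of this length. CCAAT was found for 9 of 25 genes, against 33.9% of all windows, and GGGCGG for 15 of 25, against 32.7%. The E-box CACGTG, bound by Myc with its partner Max, was found for 1 gene, Fbln1, against 6.02% of all windows. The AP-1 motif TGAGTCA was found for Col6a1 alone among the 25, against 4.46%. None of the 25 held an E2F motif spelled TTTCGCGC, TTTGGCGC, TTTCCCGC or TTTGCCGC, against 1.86% of all windows. These are counts of genes, where several windows of 1 gene count once, set against shares of windows. Counted by window, the 30 windows of the matrix genes held TATAAA in 16.7%, CCAAT in 30.0% and GGGCGG in 56.7%. CACGTG was in 6.67% of them, TGAGTCA in 3.33% and an E2F motif in 0%. No spelling contains another, and a match describes the letters only.

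The matrix genes differed far more between tumours of 1 genotype than between genotypes. Signals are given as log2(intensity + 5), where a step of 1 is a doubling of signal. The standard deviation (SD) within genotypes had a median of 0.99 over the 41 genes and of 0.36 over all tested genes, and 26 of the 41 lay above 0.93, the 90th percentile of all. From the lowest to the highest of 80 tumours the genes spanned 2.79 to 8.19 log2 units, with a median of 5.09. Of the 41 genes, 30 exceeded the filter value of 74.6 (6.31 on the log2 scale) on all 80 arrays. Fap exceeded it on 73 arrays, Pdgfra on 70, Eln on 69, Fbln1 on 68 and Mfap2 on 61. Mfap4, a microfibril-associated glycoprotein, exceeded it on 18 arrays, so most of its values are near background.

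Fibrillar collagen was above the filter value in every tumour and ranged widely. Col1a1, the main chain of type I collagen, lay between 8.93 and 13.65 in wild type tumours (median 10.97), 8.87 and 14.04 among E2F1 null (10.51), 9.21 and 12.55 among E2F2 null ones (10.78), and 9.84 and 13.57 in E2F3 heterozygous tumours (11.44). Its partner chain Col1a2 had medians of 11.97, 11.84, 11.93 and 12.29 in the same order, with extremes of 9.73 and 14.24, both in E2F1 null tumours. Col3a1, which joins type I collagen in compliant tissue, lay between 9.78 and 14.09 in wild type tumours (12.30), 10.38 and 14.35 among E2F1 null (12.03), 10.48 and 13.18 among E2F2 null ones (11.88), and 11.12 and 13.97 in E2F3 heterozygous tumours (12.51). Col5a1, a type V chain that starts fibrils, ranged from 7.25 to 12.28 in wild type tumours (8.93), 7.02 to 13.31 among E2F1 null (8.94), 7.45 to 10.09 among E2F2 null ones (8.62) and 7.98 to 12.15 in E2F3 heterozygous tumours (9.48). All 4 genotypes overlapped over most of their range, and the E2F2 null group lacked the highest values.

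**Figure D1:**
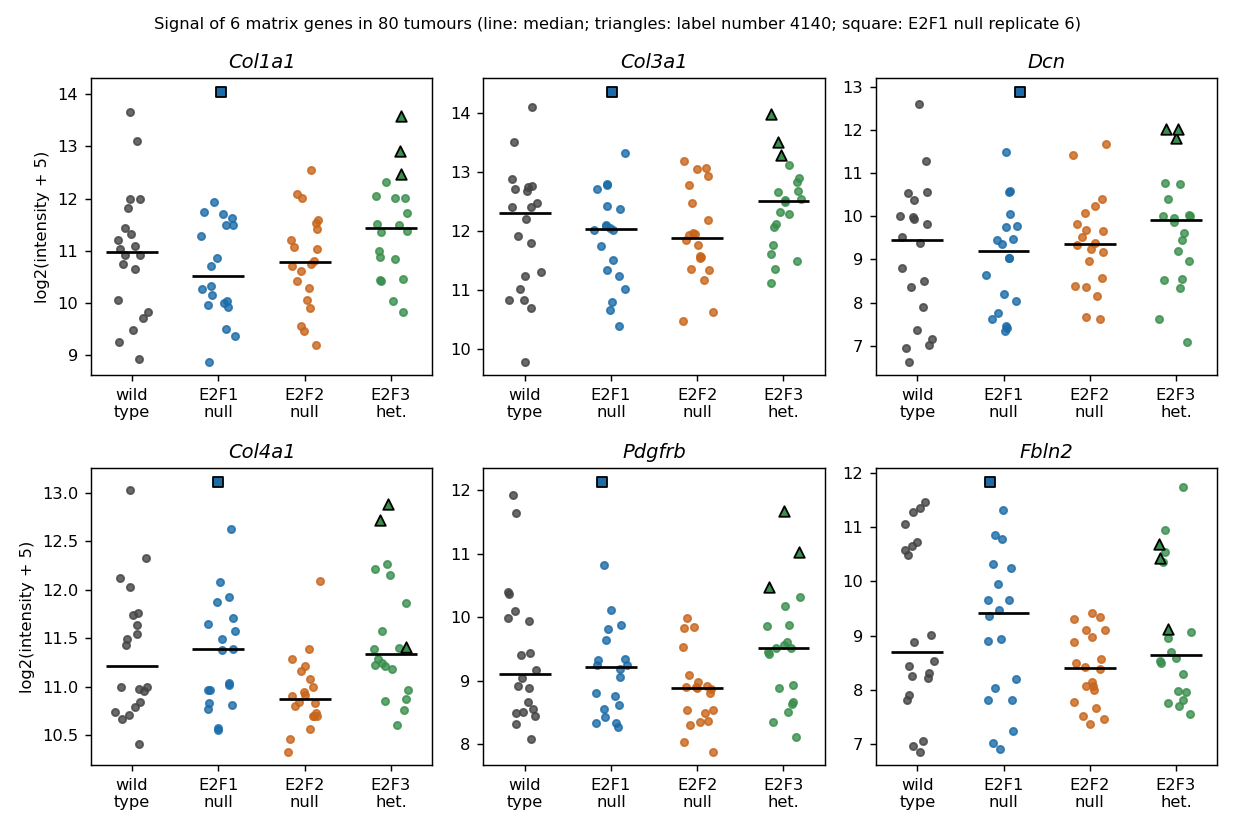
Signal of Col1a1, Col3a1, Dcn, Col4a1, Pdgfrb and Fbln2 as log2(intensity + 5) on the vertical axis in each of 80 tumours, 20 per genotype on the horizontal axis; lines are medians, triangles mark the 3 tumours of label number 4140 and the square marks E2F1 null replicate 6. The genotypes overlap, the square is the highest point of each panel, and the E2F2 null points of Col4a1, Pdgfrb and Fbln2 lie in a narrower band than the others.

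Beside Col5a1, the genes with the widest ranges were glycoproteins and fibril-binding proteins. Mfap4 ranged from 2.82 to 8.79 in wild type tumours (median 4.55), 2.76 to 10.94 among E2F1 null (3.58), 2.75 to 8.01 among E2F2 null ones (3.91) and 2.88 to 8.48 in E2F3 heterozygous tumours (4.14). Thbs2, a matricellular protein that restrains vessel growth, ranged from 6.45 to 12.24 in wild type tumours (8.78), 5.36 to 13.09 among E2F1 null (8.09), 6.67 to 10.83 among E2F2 null ones (9.12) and 7.19 to 11.47 in E2F3 heterozygous tumours (9.29). The E2F1 null group held both the lowest and the highest Thbs2 value. Lum, the proteoglycan lumican, ranged from 5.53 to 12.56 in wild type tumours (8.18), 6.65 to 12.65 among E2F1 null (7.76), 6.88 to 10.62 among E2F2 null ones (8.08) and 7.39 to 11.79 in E2F3 heterozygous tumours (8.78). Tnc, the wound and stroma glycoprotein tenascin C, ranged from 8.30 to 12.27 in wild type tumours (10.61), 6.43 to 13.50 among E2F1 null (10.05), 8.34 to 12.35 among E2F2 null ones (10.22) and 9.09 to 12.51 in E2F3 heterozygous tumours (10.98). Col12a1, which coats collagen fibrils, ranged from 5.73 to 10.77 in wild type tumours (7.59), 4.87 to 11.88 among E2F1 null (7.46), 6.61 to 9.55 among E2F2 null ones (7.81) and 6.75 to 10.08 in E2F3 heterozygous tumours (8.04). No genotype was set apart by any of these 5 genes.

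Adhesive glycoproteins and fibroblast surface markers had the same wide overlap. Fn1, fibronectin, which binds integrins and collagen, ranged from 9.36 to 13.49 in wild type tumours (median 11.24), 9.13 to 13.79 among E2F1 null (11.15), 9.49 to 13.48 among E2F2 null ones (10.77) and 9.58 to 13.47 in E2F3 heterozygous tumours (11.39). Sparc, a collagen-binding matricellular protein, had medians of 11.65, 11.88, 11.74 and 11.97 in the same order and extremes of 10.18 and 14.50. Fap, a serine protease of activated fibroblasts, had medians of 7.35, 7.17, 7.06 and 7.50 and extremes of 5.64 and 10.64. For Pdgfra, the platelet-derived growth factor receptor of fibroblasts, the medians were 7.33, 7.30, 7.48 and 7.77 and the extremes 5.28 and 10.70. Pdgfrb, the receptor of pericytes and activated fibroblasts, ranged from 8.08 to 11.92 in wild type tumours (9.11), 8.27 to 12.13 among E2F1 null (9.21), 7.88 to 9.98 among E2F2 null ones (8.88) and 8.12 to 11.67 in E2F3 heterozygous tumours (9.52). No E2F2 null tumour reached 10 for Pdgfrb, while each other genotype had tumours above that level.

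A few tumours held most of the highest values. A tumour score, the mean over the 41 genes of the deviation of the log2 signal from its average across the 80 tumours, ran from -1.40 to 2.50 in wild type tumours (median 0.06), -1.75 to 3.00 among E2F1 null (-0.35), -1.28 to 1.03 among E2F2 null ones (-0.18) and -1.09 to 2.21 in E2F3 heterozygous tumours (0.28). E2F1 null replicate 6 scored 3.00 and was the highest of all tumours for 36 of 41 genes, Col1a1 at 14.04 and Col3a1 at 14.35 among them. Wild type replicate 6 scored 2.50, with Col1a1 at 13.65, and E2F3 heterozygous replicate 13 scored 2.21, with Col1a1 at 13.57. These 3 tumours, of 3 genotypes, took 114 of the 205 places among the top 5 for each gene. At the other end, E2F1 null replicate 20, with Col1a1 at 8.87, scored -1.75 and was the lowest tumour for 18 genes. In E2F1 null replicate 6 the summed signal of the fibroblast list outside the set was 26720, the highest of its group, where the median was 2037; its scores, taken in the same way as above, were 3.45 for this list, 2.33 for smooth muscle and pericyte, 1.87 for endothelium, 1.57 for macrophage and -0.77 for luminal markers. Their part in the matrix signal was not tested.

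The E2F2 null group was the most even. For 36 of 41 genes its SD was the smallest of the 4 genotypes, with a median SD of 0.75 against 1.09 for wild type, 1.08 for E2F1 null and 0.94 for E2F3 heterozygous tumours. For Fbln2, fibulin 2, an elastic-fibre and basement-membrane linker, the SD was 0.67 in E2F2 null and 1.59 in wild type tumours. These SDs are a description, since the difference in spread was not tested.

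Tumours of 1 label number were more alike for most matrix genes than for the median tested gene. The correlation between such tumours had a median of 0.34 over the 41 genes and of 0.16 over all tested genes. It was highest for Pdgfrb (0.64), Col6a3 (0.60), the procollagen protease enhancer Pcolce (0.57) and Col5a1 (0.57), and near 0 for Eln, elastin (-0.02), and Thbs1, thrombospondin 1 (0.07). The 3 E2F3 heterozygous tumours of label number 4140 (replicates 3, 13 and 14) scored 1.26 to 2.21, and the 3 of label number 4031 scored 0.47 to 0.56. The 4 E2F2 null tumours of label number 4010 all scored below 0 but ranged from -1.28 to -0.23. The SD of the score within genotypes was 0.87. Other label numbers held scores on both sides of 0: the wild type tumours of 3883 scored -1.08 and 0.73, and the E2F2 null tumours of 3497 scored -0.67 and 0.94. The label numbers named here are examples. Those of 4013, also E2F2 null, scored -0.54 to 1.03. For Col1a1 (0.18), Col1a2 (0.20) and Col3a1 (0.17) the correlation within label numbers was close to the median of all tested genes.

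Whether loss of an E2F gene alters the matrix programme was asked for each genotype against wild type with limma, with the label number as a random block and p-values adjusted by the Benjamini-Hochberg method over all tested genes. No matrix gene passed an adjusted p of 0.05 in any comparison. The median standard error (SE) of a matrix gene was 0.31 in the E2F1 null comparison and 0.32 in each of the other 2, against 0.12 for all tested genes, so differences of the size seen here could not be told from the spread between tumours. A p above the threshold does not show that the levels were equal. The 3 comparisons share the wild type tumours. Matrix genes moved together across tumours, so counts of them as higher or lower are not counts of independent observations.

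**Figure D2:**
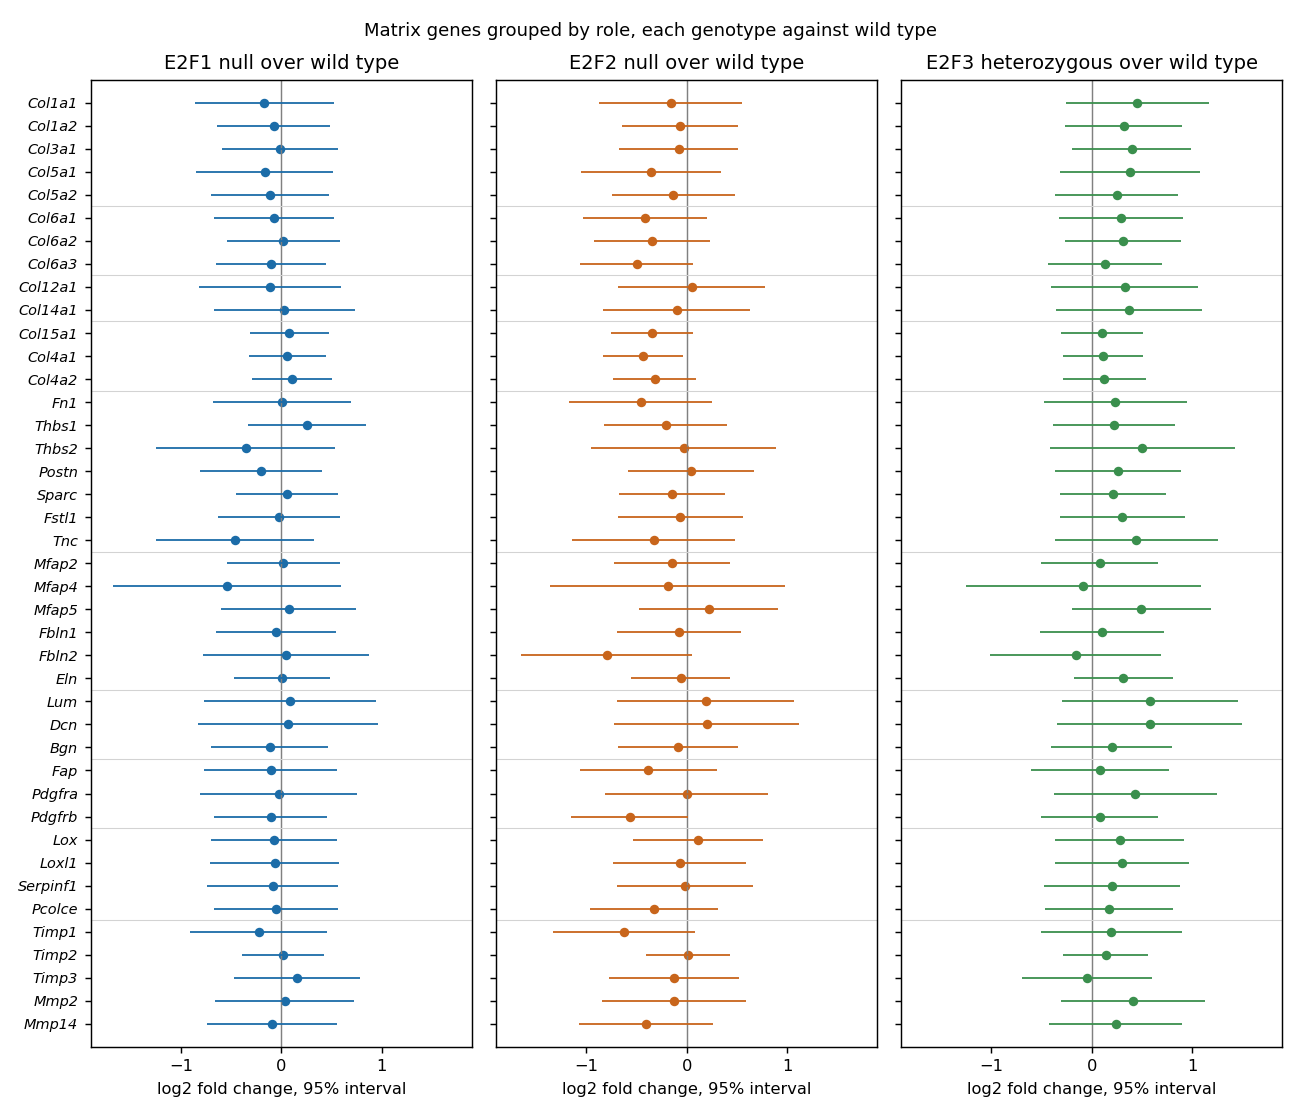
Log2 fold change over wild type (horizontal axis) of the 41 matrix genes (rows, grouped by role), with 1 panel for each other genotype; points are limma estimates and bars their 95% intervals, 20 tumours per genotype. All intervals include 0 except that of Col4a1 in E2F2 null tumours, and most E2F3 heterozygous points lie above 0.

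E2F1 null tumours had matrix gene levels close to wild type on average. Of the 41 genes, 17 were higher and 24 lower, with a median log2 fold change of -0.05, against 0.01 over all tested genes. By limma 0 matrix genes passed the threshold and 0 had an unadjusted p under 0.05; 0.0456% of all tested genes passed and 1.28% had such a p. The smallest p belonged to Tnc, at -0.47 (SE 0.40, p = 0.242, limma adjusted p = 1.00), with 3 of 20 E2F1 null tumours below every wild type tumour and 1 above. Mfap4 followed at -0.54 (SE 0.57) and Thbs1, which activates latent transforming growth factor beta, at 0.26 (SE 0.30). Of the fibrillar chains, Col1a1 was at -0.17 (SE 0.35) and Col3a1 at -0.01 (SE 0.29). Chromosome 2, which holds E2f1, holds 3 matrix genes: Thbs1 lies 36.5 Mb from it, Fap (-0.11, SE 0.33) 92.1 Mb and Col5a1 (-0.17, SE 0.34) 127 Mb, measured between annotated starts.

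The direction of this comparison rested on single tumours. Without E2F1 null replicate 6, 3 genes were higher and 38 lower, and the median was -0.21; Mfap4 was then at -0.91 and Thbs1 at 0.09. Without wild type replicate 6 instead, 35 were higher and 6 lower, and the median was 0.09, with Thbs1 at 0.35 and Mfap4 at -0.33. Without both, 13 were higher and 28 lower, with a median of -0.08. Still 0 genes passed in each case.

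**Figure D3:**
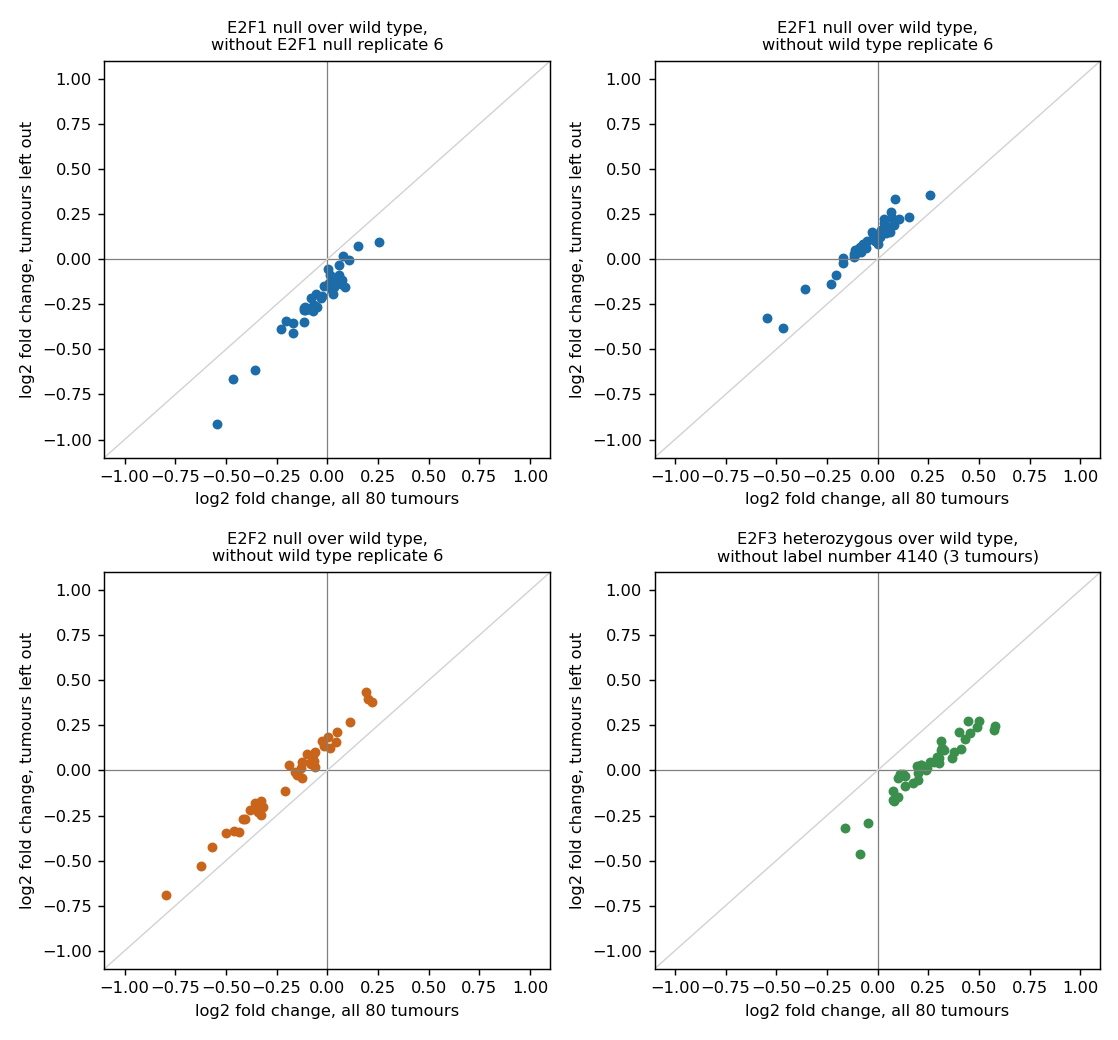
Log2 fold change of the 41 matrix genes over wild type with all 80 tumours (horizontal axis) and with the named tumours left out (vertical axis); each point is 1 gene, the diagonal marks equal values and the grey lines mark 0. Leaving out 1 tumour, or the 3 of label number 4140, shifts nearly all points of a panel the same way and carries many across 0.

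In E2F2 null tumours most matrix genes had lower average levels than in wild type, without any passing the threshold. Of 41 genes, 8 were higher and 33 lower, with a median log2 fold change of -0.13, against -0.01 over all tested genes. By limma 0 passed and 1, Col4a1, had an unadjusted p under 0.05 (2.44% of matrix genes); over all tested genes 0.0228% passed and 6.14% had such a p. Col4a1, a chain of the basement membrane network, ranged from 10.41 to 13.03 in wild type tumours (median 11.22) and from 10.33 to 12.09 in E2F2 null tumours (10.87). The E2F2 null range lay within that of wild type but for 1 tumour below it. Its log2 fold change was -0.43 (SE 0.20, 95% interval -0.83 to -0.03, p = 0.0334, adjusted p = 0.788). Its partner Col4a2 was at -0.32 (SE 0.21) and the multiplexin Col15a1, which ties basement membrane to stroma, at -0.34 (SE 0.21).

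The lowest fold changes of that comparison included Pdgfrb at -0.57 (SE 0.29, p = 0.0558), Fbln2 at -0.80 (SE 0.43, p = 0.0670), Timp1, an inhibitor of matrix metalloproteinases, at -0.62 (SE 0.35), and the collagen VI chains Col6a1 at -0.41 (SE 0.31), Col6a2 at -0.34 (SE 0.29) and Col6a3 at -0.50 (SE 0.28). The limma adjusted p of Pdgfrb and Fbln2 was 0.788 as well. Fbln2 had medians of 8.71 in wild type and 8.40 in E2F2 null tumours; wild type tumours reached 11.46, while no E2F2 null tumour exceeded 9.41. Type I and III collagens stayed near 0, with Col1a1 at -0.16 (SE 0.36), Col1a2 at -0.07 (SE 0.29) and Col3a1 at -0.08 (SE 0.30). The proteoglycans Dcn (0.20, SE 0.46) and Lum (0.19, SE 0.44) were on the other side. On chromosome 4, which holds E2f2, Mfap2 at 4.84 Mb from it was at -0.15 (SE 0.29), Tnc at 72.2 Mb at -0.33 (SE 0.41) and Col15a1 lay 89.0 Mb away.

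Without wild type replicate 6, 21 genes were higher and 20 lower in E2F2 null tumours and the median was 0.01; Col4a1 was then at -0.34 (p = 0.0819), Pdgfrb at -0.43 and Fbln2 at -0.69. With 1 mean per label number the median was -0.23. Markers of several cell types lay on the same side. Of 12 tested fibroblast markers outside the set, 10 were lower and 2 higher, with a median of -0.11 (Thy1 -0.55, SE 0.30). Of 5 tested basal epithelial markers, 4 were lower and 1 higher. All 11 endothelial markers were lower in E2F2 null tumours (Esam -0.34, SE 0.17). So were all 8 tested smooth muscle and pericyte markers (Rgs5 -0.41, SE 0.20). All 8 mesenchymal transition genes (Twist1 -0.97, SE 0.42) and 8 of 10 macrophage markers were lower too. Luminal markers lay on the other side, with 8 of 10 higher (median 0.14). Of 5 tested adipocyte markers, 3 were higher (median 0.30). Summed endothelial signal ran from 916 to 2020 in E2F2 null against 963 to 4312 in wild type tumours, with medians of 1299 and 1341. For smooth muscle and pericyte it ran from 2414 to 5617 against 2648 to 17980, with medians of 4122 and 4357. Wild type replicate 6, included here, scored 1.48 for endothelium and 1.71 for smooth muscle and pericyte. How far the marker counts rest on that tumour was not tested. None of these markers passed the threshold, and their part in the matrix values was not tested.

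E2F3 heterozygous tumours had higher average levels of most matrix genes, again with none past the threshold. Of 41 genes, 38 were higher and 3 lower, with a median log2 fold change of 0.25, against 0.01 over all tested genes. By limma 0 passed and 0 had an unadjusted p under 0.05; of all tested genes 0% passed and 0.661% had such a p. The smallest p was that of Mfap5, a microfibril glycoprotein, which ranged from 5.68 to 11.06 in wild type tumours (median 8.67) and from 7.04 to 10.87 in E2F3 heterozygous tumours (9.05), within the wild type range. It was at 0.49 (SE 0.35, p = 0.162, limma adjusted p = 1.00). Next were Col3a1 at 0.40 (SE 0.30) and Lum at 0.58 (SE 0.44), and Col1a1 stood at 0.45 (SE 0.36). The exceptions in sign were Fbln2 (-0.16, SE 0.43), Mfap4 (-0.09, SE 0.59) and Timp3, a matrix-bound metalloproteinase inhibitor (-0.05, SE 0.32).

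This count and median depended on label number 4140. Without its 3 tumours 26 of 41 genes were higher, the median was 0.03 and the smallest p was 0.365, for Timp3; Mfap5 was at 0.24, Col3a1 at 0.21, Lum at 0.25 and Col1a1 at 0.21. Without wild type replicate 6 the values went the other way, with 40 of 41 genes higher, a median of 0.38 and a smallest p of 0.0511, for Lum at 0.83. All 12 fibroblast markers outside the set were also higher in E2F3 heterozygous tumours (Dpt 0.53, SE 0.45), as were 8 of 10 macrophage and 9 of 11 endothelial markers, 9 of 10 luminal markers, and all 8 skeletal muscle markers, with a median of 0.75. Smooth muscle and pericyte markers lay on the other side, with 3 of 8 higher and a median of -0.06. The part of these in the matrix values was not tested.

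Between the mutant genotypes the widest gap was that of E2F2 null and E2F3 heterozygous tumours. All 41 genes were lower in E2F2 null, with a median log2 fold change of -0.43, against -0.02 over all tested genes. By limma 0 passed, against 0.0342% of all tested genes, while 9 of 41 (22.0%) had an unadjusted p under 0.05, against 7.53% of all. These 9 were the basement membrane genes Col4a1 (-0.55, SE 0.21, p = 0.00962, adjusted p = 0.633), Col4a2 (-0.44) and Col15a1 (-0.44), the collagen VI chains Col6a1 (-0.71), Col6a2 (-0.65) and Col6a3 (-0.63), with Timp1 (-0.82), Pdgfrb (-0.64) and Col5a1 (-0.74). All 9 are named because their unadjusted p was under 0.05, a choice made after the values were seen. The 41 genes moved together across tumours, so neither count is one of independent observations. Without label number 4140, 35 of 41 were lower, the median was -0.21 and 1 gene, Col4a1, had an unadjusted p under 0.05 (p = 0.0408).

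E2F1 null tumours had 26 of 41 genes higher than E2F2 null, with a median of 0.07; 0 passed by limma, against 0.16% of all tested genes, and 3 (7.32%) had an unadjusted p under 0.05, below the 9.58% of all tested genes with such a p. These were Col4a1 (0.49, SE 0.20, p = 0.0157), Col4a2 (0.43, SE 0.21) and Col15a1 (0.42, SE 0.20). Without E2F1 null replicate 6 the median turned to -0.07, with 17 genes higher, and Col4a1 alone had such a p (0.0406). Compared with E2F3 heterozygous tumours, E2F1 null tumours had 38 of 41 genes lower, with a median of -0.33; 0 passed, against 0.0798% of all tested genes, and 1, Tnc (-0.91, SE 0.41, p = 0.0282), had an unadjusted p under 0.05 (2.44%, against 3.40% of all). That median was -0.51 without E2F1 null replicate 6, with 5 genes at an unadjusted p under 0.05, and -0.10 without label number 4140, with 0. A moderated F test over the 4 genotypes passed 0 of 41 genes, against 0.148% of all tested genes; its smallest p was that of Col4a1 (p = 0.0363, adjusted p = 0.992), the 1 gene with an unadjusted p under 0.05. All 6 comparisons reuse the same 4 groups and are not independent.

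Genes with several probe sets gave a check on the measurement. For 24 of the 41 genes a further 31 probe sets passed the filter, and each correlated with the tested one above 0.8 over the 80 arrays, the lowest at 0.81 (Timp2). Signs differed by more than 0.2 between probe sets in the E2F2 null comparison for Col14a1 (-0.10 and 0.13), Timp2 (-0.25 to 0.21) and Timp3 (-0.13 to 0.28), and in the E2F3 heterozygous comparison for Timp3 (-0.25 to 0.17).

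Within genotypes the matrix genes moved as a block with Col1a1. Correlations were taken over the 53 label numbers, as deviations from the genotype mean, for 54 relations in all, 40 genes and 14 lists. All 40 genes correlated with Col1a1 by a permutation test with 100000 resamples within genotypes, with a median Pearson r of 0.83; 28 of 40 exceeded 0.8, where 1.64% of all tested genes did. The largest adjusted p was 7.56e-05 for r and 0.0105 for Spearman's rho, and 1e-05 is the smallest p these resamples can give. Without the 2 label numbers farthest from the median of Col1a1, an E2F1 null and a wild type one, the median r was 0.75 and 18 exceeded 0.8. Points share the array and its scaling.

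By role, fibrillar chains had the highest median r (0.95). The group of Pcolce, Lox, Loxl1 and Serpinf1 (0.92) and the fibril-coating collagens (0.92) came next. Col1a2 had r = 0.98 (rho 0.97, 0.97 without the 2 label numbers, and 0.97 to 0.99 within genotypes), Col5a1 0.96, Col5a2 0.95 and Col3a1 0.92. The proteoglycan Bgn, biglycan, had 0.94, and the crosslinking oxidases Loxl1 and Lox had 0.93 and 0.92. Pcolce, which speeds procollagen cleavage, had 0.93, and Serpinf1, a secreted antiangiogenic serpin, 0.91. Collagen VI chains had 0.88 to 0.91, and the fibril-coating Col12a1 and Col14a1 had 0.93 and 0.92. Among matricellular proteins, Fstl1 had 0.92, Thbs2 0.92, Postn, periostin, 0.89, Sparc 0.88, Tnc 0.76 and Fn1 0.74. Decorin and lumican had 0.82 and 0.83, and Fap, Pdgfra and Pdgfrb 0.83, 0.83 and 0.80. The gelatinase Mmp2 and its activator Mmp14 each had 0.83.

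The 5 genes that followed Col1a1 least came from several roles. Fbln2 had r = 0.55 (rho 0.44, 0.46 without the 2 label numbers, and 0.29 to 0.65 within genotypes). Timp3 had 0.56 (rho 0.47, 0.48 without the 2, 0.41 to 0.85 within genotypes). Thbs1 had 0.60, with rho 0.36 and 0.40 without the 2, so its r rested in part on those label numbers; its 4 genotype values were 0.52 to 0.72. Eln, the elastic core protein, had 0.61 (rho 0.56, 0.51 without the 2, 0.51 to 0.94 within genotypes), and Col15a1 had 0.70 (rho 0.61, 0.60 without the 2, 0.50 to 0.83 within genotypes). The basement membrane chains Col4a1 and Col4a2 were also below the median gene, at 0.73 and 0.77. Adjusted p for r was at most 7.56e-05 for each of these.

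**Figure D4:**
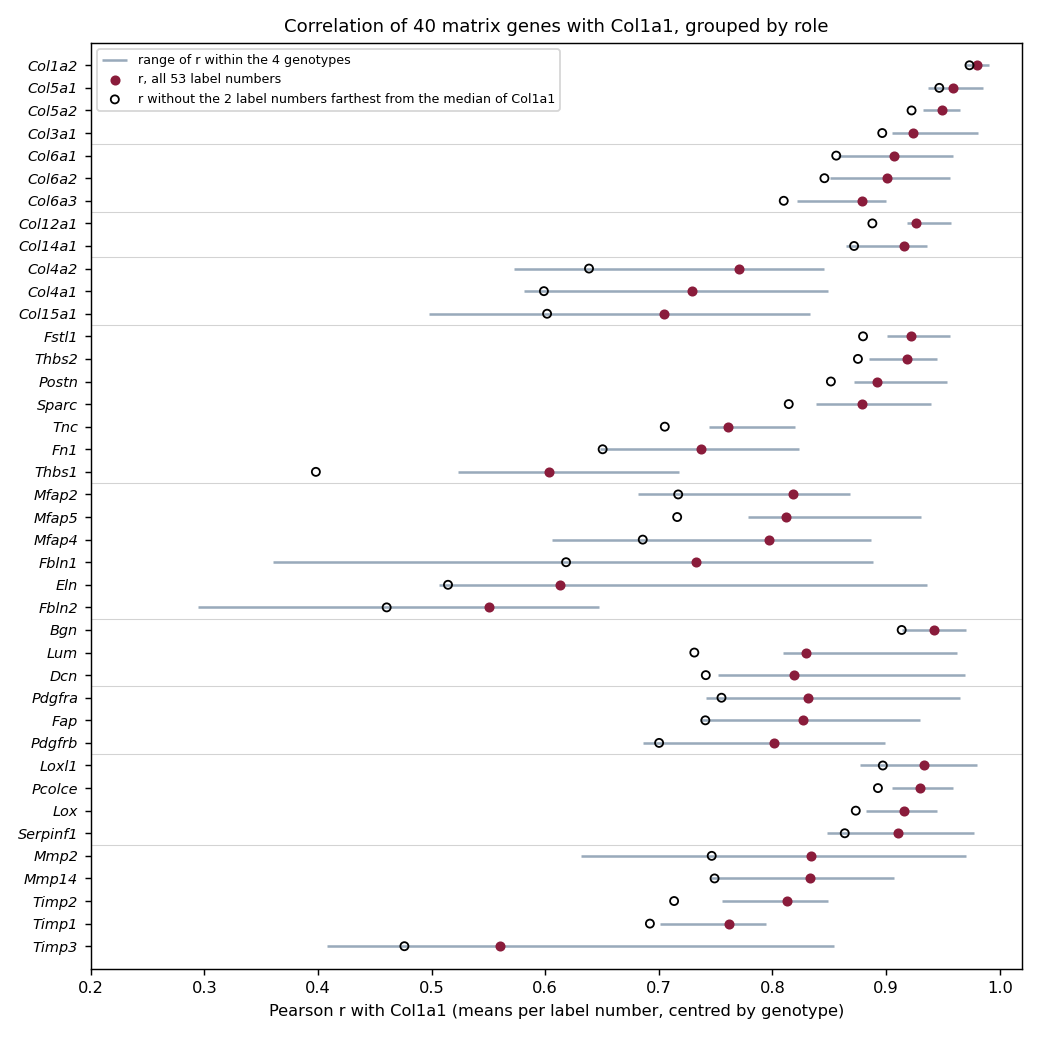
Pearson r with Col1a1 (horizontal axis) for the other 40 matrix genes (rows, grouped by role) over 53 label numbers after centring by genotype; filled points use all label numbers, open points leave out 2, and bars span the 4 within-genotype values. Fibrillar chains, Lox, Loxl1, Pcolce and Serpinf1 are among the genes above 0.9, while Fbln2, Timp3, Thbs1, Eln and Col15a1 sit between 0.55 and 0.70.

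Subunits of 1 protein kept pace with each other. Over 19 pairs tested in the same way, the highest r was 0.99 for Col6a1 and Col6a2, followed by 0.98 for Col1a1 and Col1a2 and 0.98 for Col4a1 and Col4a2. The last pair is transcribed in opposite directions from starts 21 bases apart on chromosome 8 (GRCm38.p6). Col5a1 and Col5a2 had 0.95, Dcn and Lum 0.93, and Mmp2 and Mmp14 0.93. Pairs of 1 gene family varied: Lox and Loxl1 had 0.90, Pdgfra and Pdgfrb 0.82, Fbln1 and Fbln2 0.80, and Mfap2 and Mfap5 0.80. Looser were Thbs1 and Thbs2 at 0.59 (rho 0.38, 0.37 without the 2 label numbers, permutation adjusted p = 0.00015). Timp1 and Timp2 had 0.54 (rho 0.44, 0.44 without the 2). Every pair passed, the largest adjusted p for rho being 0.00672.

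Genes outside the set that most resembled Col1a1 over the 53 label numbers were ranked by Pearson r. The first 15 were Ccdc80 (0.93), Srpx2 (0.93), Ccn4 (0.93), Tagln (0.92), Emilin1, Rcn3, Lsp1, Myl9, Adam12, Meg3, Phldb2, Acta2, Rnase4, Gask1b and Prrx1 (0.89). Tagln, Acta2 and Myl9 encode contractile proteins. Of all 8768 other tested genes ranked by r with Col1a1, the first 15 held 11 matrix genes, the first 50 held 18 and the first 100 held 23; this order is a description.

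Col1a1 also moved with markers of several stromal cell types, with mesenchymal transition genes and with basal epithelial markers. Its relation to luminal markers did not pass the threshold. The summary of each list is its mean deviation over tested genes. With Col1a1, r was 0.88 for the fibroblast list outside the set, 0.87 for smooth muscle and pericyte (0.79 without the 2 label numbers), 0.84 for macrophage (0.77), 0.79 for mesenchymal transition (0.72), 0.76 for endothelium (0.61) and 0.72 for basal epithelium (0.68), each with a permutation adjusted p of 1.17e-05. Luminal epithelium had 0.05 (rho 0.18, adjusted p = 0.762), skeletal muscle -0.002 (adjusted p = 0.991) and adipocyte 0.25 (rho 0.35, adjusted p = 0.0881 for r and 0.0116 for rho). The Schwann cell list had -0.54 (rho -0.40, -0.26 without the 2 label numbers, adjusted p = 0.00036), but it held 2 tested genes, Mbp and Sox10, while S100b was below the filter.

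Relations of single genes to the lists were tested for 16 pairs, which were not part of the plan. Their p-values were adjusted over these 16 pairs only. Pdgfrb had r = 0.92 with smooth muscle and pericyte (rho 0.87, 0.88 without the 2 label numbers) and Col4a1 had 0.87 with endothelium (rho 0.80, 0.81 without the 2) and 0.90 with mesenchymal transition (rho 0.87, 0.87 without the 2), each with a permutation adjusted p of 1.6e-05. Fn1 had 0.77 with macrophage markers (0.70 without the 2). All 3 of these genes had their highest r with the mesenchymal transition list, at 0.94 for Pdgfrb, 0.90 for Col4a1 and 0.92 for Fn1. With smooth muscle and pericyte markers Col4a1 had 0.90 and Fn1 0.86, and no difference between lists was tested. Whole tumours were measured, so the cells that express the genes of a list, mesenchymal transition included, were not identified. Fbln2 was the 1 gene of 3 examined with an inverse relation to luminal markers past the threshold, r = -0.37 (rho -0.38, -0.41 without the 2, permutation adjusted p = 0.00949), and was negative in each genotype (-0.50 to -0.28). Its r with luminal markers was also the lowest of the 41 genes, which ran up to 0.12 for Postn. Thbs1 (-0.33) and Fbln1 (-0.29) came next and were not tested with this list. The adjusted p of Fbln2 covers 16 pairs and does not allow for picking the lowest of 41 genes. Whether Fbln2 differed in its relation to luminal markers from Col1a1 (0.05) or Fn1 (-0.23) was not tested. Of the 41 genes, 23 had their highest r with the fibroblast list, 11 with mesenchymal transition, 6 with smooth muscle and pericyte, and 1, Timp2, with macrophage.

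**Figure D5:**
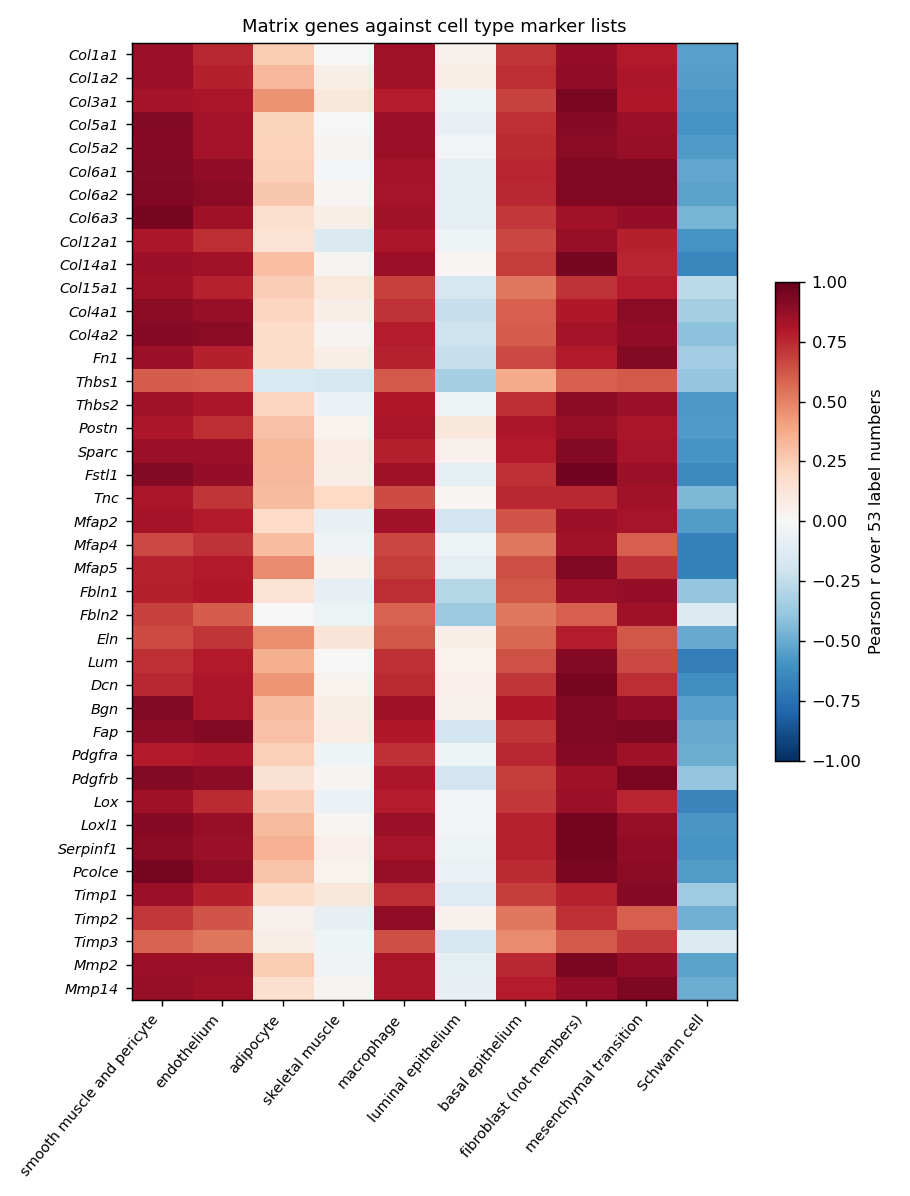
Pearson r over 53 label numbers between each of the 41 matrix genes (rows, grouped by role) and the summary of each of 10 marker lists (columns); red is positive and blue negative. The fibroblast, smooth muscle, endothelium, macrophage and mesenchymal transition columns are red throughout, from 0.53 upward, the luminal column runs from -0.37 to 0.12, and the Schwann column of 2 genes is blue.

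Genes in lists of other matrix pathways did not pass the threshold either. Of all tested genes, the share that passed ran from 0% (E2F3 heterozygous over wild type) to 0.16% (E2F1 null over E2F2 null). With so few calls among all genes, their absence from short lists does not set these pathways apart. Of 21 tested collagen-processing genes, 0 passed in any comparison by limma; against wild type 11 were higher with E2F1 loss, 2 with E2F2 loss and 16 with 1 E2F3 allele. The smallest p-values there were those of P4ha2, a prolyl hydroxylase (-0.37, SE 0.30, p = 0.221), Bmp1, the procollagen C-proteinase (-0.77, SE 0.37, p = 0.0408), and the metalloproteinase Mmp3 (0.53, SE 0.52, p = 0.308). Of 18 transforming growth factor beta pathway genes, 11, 7 and 14 were higher in the same order, led by Ltbp2, a latent-complex binding protein (-0.36, SE 0.26), Inhba, an activin subunit (-0.63, SE 0.44), and the ligand Tgfb3 (0.45, SE 0.26, p = 0.0886). Of 3 platelet-derived growth factor ligands, 0, 1 and 3 were higher, led by Pdgfc (-0.18, SE 0.17), Pdgfa (-0.27, SE 0.25) and Pdgfb (0.18, SE 0.24). Of 5 matrix receptors, 2, 1 and 5 were higher, led by Ddr1 (-0.08, SE 0.12), Itgav (-0.24, SE 0.18) and Cd44 (0.32, SE 0.31). With Col1a1 these lists had r of 0.81 (collagen processing, which includes Lox), 0.70 (transforming growth factor beta, which includes Thbs1), 0.69 (ligands) and 0.58 (receptors), each with a permutation adjusted p of at most 6.61e-05.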

How the data were processed

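Per the labels' protocols, frozen tumours gave total RNA (Qiagen RNeasy Midi), whose biotin-labelled cRNA was read on 1-colour Affymetrix arrays. The authors deposited linear intensity values, made with MAS5 in Affymetrix Expression Console per the submitters' processing notes, which as used here name no version. The 2% trimmed mean was 500 on every array, so changes in total RNA per cell cannot be seen. Probe sets with 1 gene symbol were used (20380 of 22626; 691 had several and 1555 none), with control probe sets left out.

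Intensities were converted to log2(value + 5). Probe sets above 74.6 (the 40th percentile) on 10 or more of the 80 arrays were tested, the brightest per gene. Genotypes were compared in R 4.3.3 with statmod 1.5.0 and limma 3.58.1, two-sided, with trended robust moderation and the label number as a random block (consensus correlation 0.159). Every threshold was an adjusted p of 0.05; the number of arrays limits precision. Fold changes on this scale understate low genes. Correlations used 1 mean per label number, with two-sided permutation within genotypes, using scipy 1.17.1, pandas 2.3.3 and numpy 2.4.6 under Python 3.11.15; plots used matplotlib 3.10.9. The limma script was tested on simulated data.

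Genes were named by role, by the 6 widest ranges, by the 3 smallest p-values per comparison with wild type, by the 5 lowest correlations with Col1a1, by chromosome shared with the targeted gene, by disagreeing probe sets, by the 15 nearest other genes, and by the smallest p in each pathway list; others were added after their values were seen. The members and lists were chosen with earlier results of these data known. Alternatives were other pseudocounts (1 and 32), filters, probe set rules, quantile normalization, no block, 1 mean per label number, plain moderation and tumours left out.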

Additional observations from a re-analysis of the deposited data

How the results depend on the processing

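Over 14 other settings, all 98 recomputed counts of matrix genes past the threshold were 0, with a smallest adjusted p of 0.295 (E2F1 null over E2F2 null with no replicate block). All 116 recomputed fold changes of the 9 genes with the smallest p-values kept their direction and stayed above the threshold. Medians over the 41 genes did not all keep their sign: they ran from -0.213 to 0.0868 for E2F1 null, -0.228 to 0.0139 for E2F2 null and 0.0287 to 0.379 for E2F3 heterozygous tumours over wild type, of which all extremes but -0.228 came from tumours left out. Without the replicate block these medians were -0.0643, -0.116 and 0.272, so the block changed no call. The 3 sets of tumours left out (E2F1 null replicate 6, wild type replicate 6 and label number 4140) were chosen for their high values, the last 2 after seeing the data; other tumours were not left out in turn. Mfap4 in E2F1 null tumours was at -0.543, and -0.214 with a pseudocount of 32, since it is near background. Of the 54 correlations with Col1a1, 51 passed, and 38 to 52 did in 9 other settings, the fewest within E2F2 null tumours alone.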
